A study of Mus musculus with 29 samples.

Results

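Rbfox3, Cux2, Rorb, Fezf2, Bcl11b, Tbr1, Foxp2, Cplx3 and Nefh mark neurons of the cerebral cortex by layer or by projection, and their transcript levels were followed in mouse brain tissue 21 days after a photothrombotic stroke, in which light closes cortical vessels filled with a photosensitive dye. The 9 genes were taken by symbol, and they are 9 of the 25746 genes counted. Stroked tissue gave 4 samples of untreated WT (C57BL/6J) mice, 3 samples of WT mice with tacrolimus from the start (WT-Tacr acute), 5 samples of WT mice in which it was begun later (WT-Tacr delayed), 3 samples of Rag2-/- mice and 3 samples of NSG mice. Non-stroked tissue gave 4 WT, 3 Rag2-/- and 4 NSG samples. For NSG and tacrolimus-treated mice the study's methods give fewer animals for RNA sequencing than there are samples here, so samples may share animals, within a group or between stroked and non-stroked groups. Tacrolimus inhibits calcineurin and with it the activation of T cells. Rag2-/- mice lack the recombinase that T and B cells need to mature. NSG mice carry the scid mutation of Prkdc and a loss of Il2rg on the NOD background, so that a difference between NSG and WT mice can be one of strain. No tacrolimus-treated mice without stroke were analysed here, and the 4 non-stroked WT samples served untreated and treated WT mice alike. Whether a non-stroked sample is from an uninjured mouse or from the side opposite to a lesion is given differently in the study's methods and results. Sample titles begin with Imm2 in 20 samples and with TF in 9 samples. All non-stroked, Rag2-/- and NSG samples are Imm2, all WT-Tacr delayed samples are TF, and stroked WT (2 and 2) and WT-Tacr acute (1 and 2) have both prefixes.

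The cortex is built in layers whose projection neurons differ in their targets and in the transcription factors that they keep into adult life. Upper-layer neurons connect cortical areas, neurons of layer 4 receive thalamic input, those of layer 5 project to brainstem and spinal cord, and those of layer 6 project back to the thalamus. A photothrombotic lesion of the sensorimotor cortex destroys such columns from the surface downwards.

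All 9 genes were found in the GENCODE M21 annotation of GRCm38, and none overlaps another counted gene. On the minus strand lie Rbfox3 (ENSMUSG00000025576) at chr11:118489762-118911597, Cux2 (ENSMUSG00000042589) at chr5:121856366-122050102, Rorb (ENSMUSG00000036192) at chr19:18930605-19111196, Fezf2 (ENSMUSG00000021743) at chr14:12342094-12348189, Bcl11b (ENSMUSG00000048251) at chr12:107910403-108003602, Cplx3 (ENSMUSG00000039714) at chr9:57599992-57606281 and Nefh (ENSMUSG00000020396) at chr11:4938754-4948064. On the plus strand lie Tbr1 (ENSMUSG00000035033) at chr2:61802930-61814114 and Foxp2 (ENSMUSG00000029563) at chr6:14901349-15441977. A RefSeq promoter on GRCm38.p6 was found for 7 of the 9 genes. The 250 bases before the annotated start are shown for Rbfox3, Rorb and Cplx3, the members with a window that touches no exon of these genes (for Rorb the first of its windows), since the transcripts of all 3 were lower together in WT-Tacr delayed mice. The windows are chr11:118761042-118761291 for Rbfox3, chr19:19111197-19111446 for Rorb and chr9:57606282-57606531 for Cplx3, each on the minus strand and written 5′ to 3′. The Rbfox3 window lies within the gene as GENCODE draws it, from 118489762 to 118911597, and is upstream of a shorter transcript. Capitals mark matches on either strand to letters that were searched for. They are the GC box, spelled GGGCGG, the CCAAT box of nuclear factor Y, and an E-box of basic helix-loop-helix factors, spelled CACGTG. No match overlaps another.
Rbfox3: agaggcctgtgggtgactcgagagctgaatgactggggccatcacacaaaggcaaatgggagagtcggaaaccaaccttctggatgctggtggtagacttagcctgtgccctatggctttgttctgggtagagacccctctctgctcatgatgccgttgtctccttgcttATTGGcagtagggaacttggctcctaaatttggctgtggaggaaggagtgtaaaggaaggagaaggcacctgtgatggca
Rorb: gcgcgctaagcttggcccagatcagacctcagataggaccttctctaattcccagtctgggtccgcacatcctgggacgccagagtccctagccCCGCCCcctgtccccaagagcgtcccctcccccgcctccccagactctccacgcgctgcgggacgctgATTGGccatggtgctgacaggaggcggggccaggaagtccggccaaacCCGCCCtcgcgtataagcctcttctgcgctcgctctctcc
Cplx3: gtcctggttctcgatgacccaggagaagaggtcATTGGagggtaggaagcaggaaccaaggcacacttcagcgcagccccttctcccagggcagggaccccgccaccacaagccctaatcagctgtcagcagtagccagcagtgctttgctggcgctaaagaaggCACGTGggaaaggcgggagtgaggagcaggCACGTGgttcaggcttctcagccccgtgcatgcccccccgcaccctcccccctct
The Rorb window holds 2 GC boxes and 1 CCAAT box, the Cplx3 window 2 E-boxes and 1 CCAAT box, and the Rbfox3 window 1 CCAAT box. Among 32851 RefSeq windows of this length, 32.7% hold a GC box, 33.8% a CCAAT box and 6.02% this E-box. These matches describe letters only, and no motif is shared by all 3 windows other than the CCAAT box.

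Total counts ran from 17789044 to 43403413 per sample and were lowest in the TF samples. Single members were covered by 148 counts (Cplx3) to 20302 counts (Rbfox3) in a sample. All 16 genes of a pan-neuronal list (such as Snap25, Syt1 and Map2) and all 7 of an excitatory cortical list (such as Slc17a7, Camk2a and Neurod2) were detected in every group, so the libraries hold cortical neurons. The libraries differed in neighbouring tissue. A list of 10 striatal genes (such as Drd1, Drd2 and Adora2a) summed to between 133 and 2464 CPM (counts scaled to a common library size), and a list of 6 choroid plexus genes (such as Ttr, Folr1 and Kl) to between 3.87 and 1577 CPM. The labels do not name the animal of a sample, so p-values measure the spread between these samples and take them as independent.

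In non-stroked WT tissue the members spanned a wide range of levels. Per kilobase of exon, Rbfox3, which encodes the splicing regulator NeuN of most mature neurons, was highest at 84.7 ± 9.91 CPM (SD, n = 4). Tbr1, the T-box factor of corticothalamic layer 6 neurons, followed at 39.8 ± 4.42, and Nefh, the heavy neurofilament subunit of large projection axons, at 25.2 ± 3.50 CPM per kilobase. Bcl11b (16.4 ± 2.89) and Fezf2 (15.6 ± 1.48), both zinc finger factors of subcerebral layer 5 neurons, and Cux2 (14.4 ± 0.483), a homeobox factor of the upper layers, were within 1 SD of their neighbour in this order. Cplx3, a complexin of layer 6b neurons, was at 6.93 ± 0.827 and Rorb, a nuclear receptor of layer 4, at 5.90 ± 0.390 CPM per kilobase, which is slightly more than 1 SD of Cplx3 apart. Foxp2, a forkhead factor of layer 6 and of striatal neurons, was lowest at 1.13 ± 0.214 CPM per kilobase. With the longest transcript as the length the order of Bcl11b, Fezf2 and Cux2 became Fezf2, Cux2 and Bcl11b, and the other genes kept their places.

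Without stroke, edgeR called none of the 9 genes between any 2 strains, where a gene is called at a Benjamini-Hochberg adjusted p below 0.05 over the 17031 genes tested. Among all genes tested the share called was 9.76% for NSG against WT, 0.00587% for Rag2-/- against WT and 6.33% for NSG against Rag2-/-. At an unadjusted p below 0.05 the members numbered 2, 0 and 2, against 3894, 349 and 3099 of all genes tested. In both NSG comparisons the 2 members were Bcl11b and Foxp2. DESeq2 called 0 members in each comparison. The values of Nefh did not overlap between Rag2-/- and WT mice, 1 of 9 members where this held for 9.44% of all genes. Bcl11b was at 139, 165, 254 and 258 CPM in the NSG samples and at 159, 109, 118 and 146 CPM in the WT samples, a log2 difference of 0.61 (SE 0.245, edgeR adjusted p = 0.122). Foxp2 was at 17.3, 23.6, 32.3 and 37.1 CPM in NSG and at 21.2, 21.4, 14.0 and 17.4 CPM in WT, a log2 difference of 0.58 (SE 0.254, adjusted p = 0.169). In both genes NSG replicates 3 and 4 were high and replicate 1 lay within the WT range. The same 2 replicates held the highest sums of the striatal list, 1893 and 2464 CPM, against 342 to 657 CPM in WT.

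**Figure D1:**
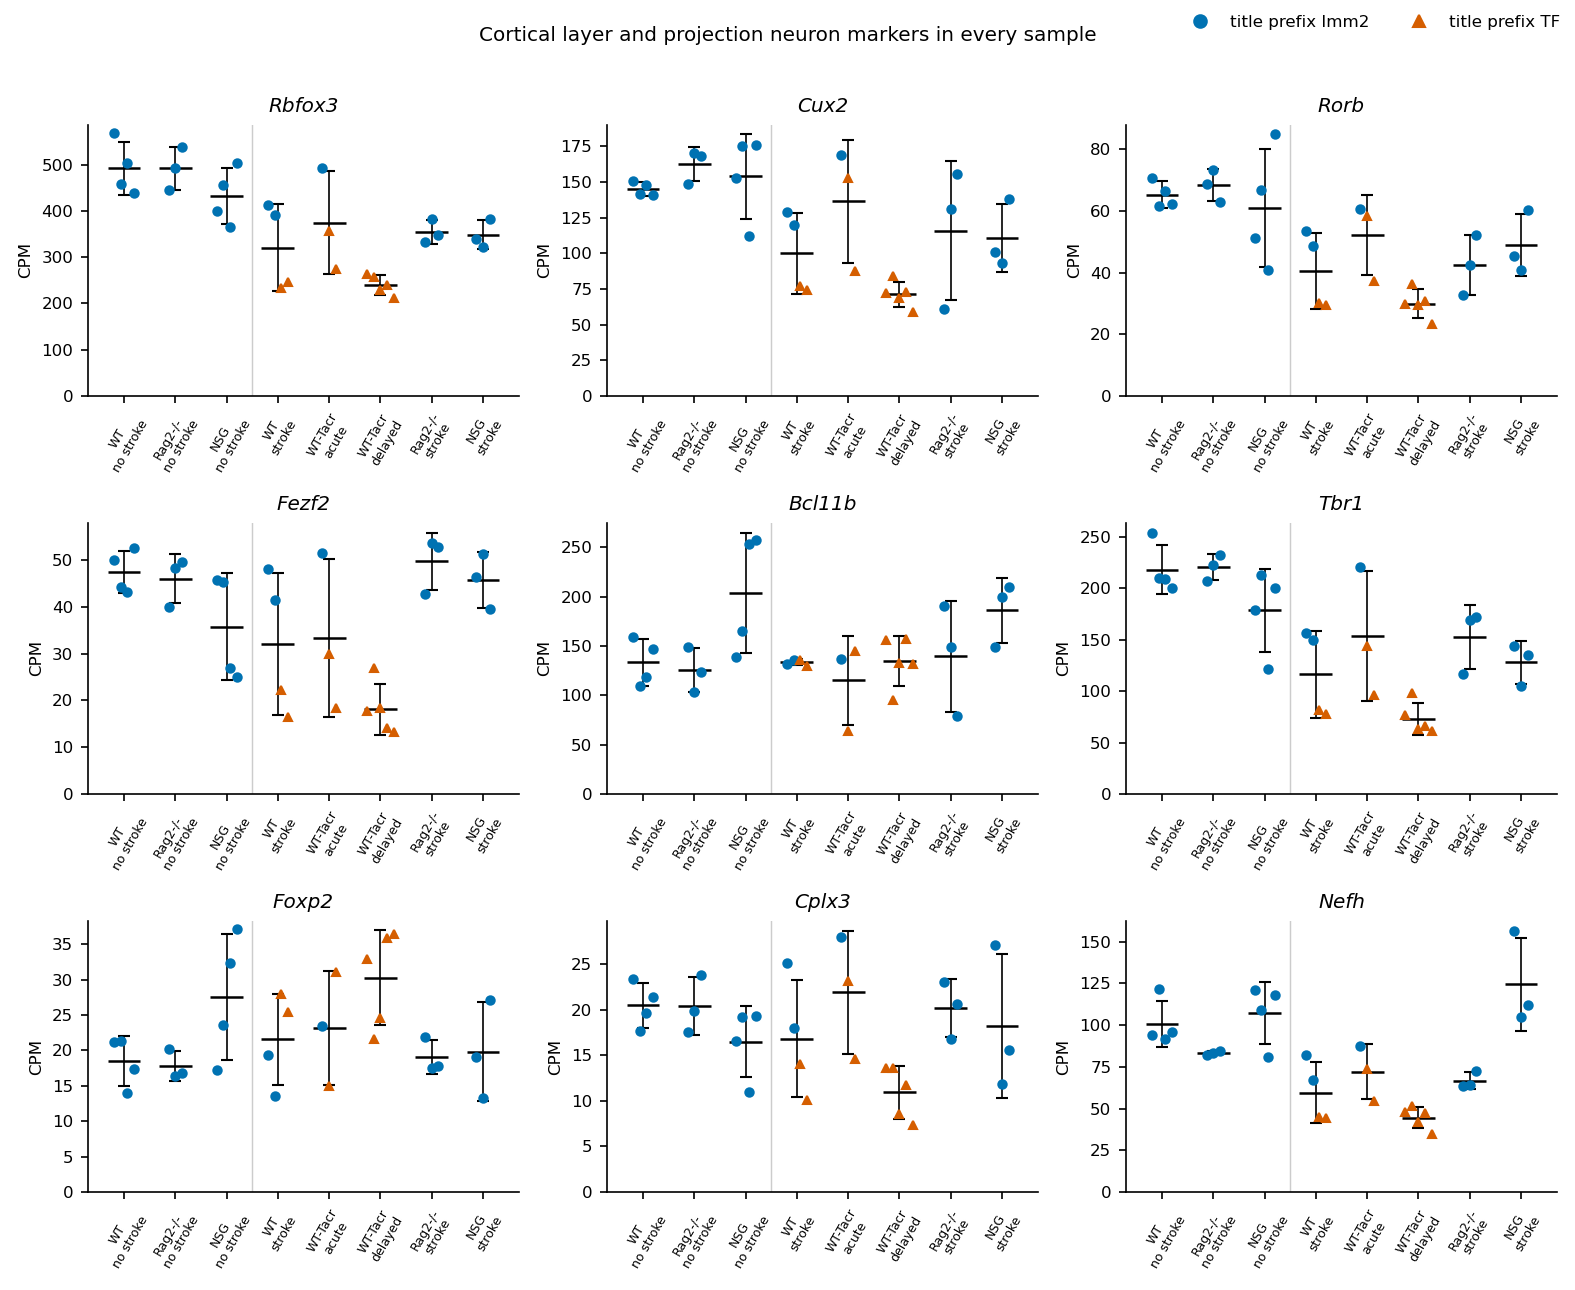
Expression of the 9 markers in CPM (y axis, from 0) in each sample (points) by group (x axis), with the group mean and SD in black; circles are samples titled Imm2 and triangles those titled TF. Tbr1 runs from 200 to 254 CPM in non-stroked WT and from 60.9 to 98.0 CPM in WT-Tacr delayed samples, whereas Bcl11b has a mean of 133 CPM in untreated WT without and with stroke.

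After stroke 4 of the 9 markers fell in WT mice, and no marker rose. Tbr1, Nefh, Rorb and Rbfox3 fell, while Cux2 and Fezf2 had negative values that did not pass and Bcl11b was level. In tissue of mixed cells, fewer neurons and less RNA per neuron cannot be told apart. Tbr1 was at 254, 210, 209 and 200 CPM without stroke and at 156, 150, 82.1 and 77.6 CPM with it (log2 fold change -0.91, SE 0.234, edgeR adjusted p = 0.00647). Nefh went from 94.0, 121, 91.4 and 95.7 CPM to 81.8, 67.0, 44.7 and 44.2 CPM (-0.76, SE 0.179, adjusted p = 0.00335). Rorb, the layer 4 receptor, was at 61.6 to 70.8 CPM before and at 53.4, 48.7, 30.2 and 29.5 CPM after stroke (-0.69, SE 0.210, adjusted p = 0.0180). For these genes every stroked sample was below every non-stroked one, and replicates 3 and 4 were the low ones each time. Rbfox3 fell by 34.8%, from 439 to 569 CPM down to 414, 391, 234 and 246 CPM (-0.62, SE 0.166, adjusted p = 0.00832). Among all genes tested 26.9% were called in this comparison and 11.6% were called lower, against 4 of 9 members. Cux2 was also apart between the groups, at 141 to 151 CPM against 74.1 to 129 CPM, and did not pass the test (-0.54, SE 0.228, adjusted p = 0.0789). The values of 5 members did not overlap between the groups, as for 29.8% of all genes.

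The remaining members of WT mice showed no call. Fezf2, required for subcerebral neurons to form, was at 50.03, 44.3, 43.2 and 52.6 CPM without and at 48.2, 41.3, 22.2 and 16.4 CPM with stroke (-0.56, SE 0.289, adjusted p = 0.148). Cplx3 was at 17.6 to 23.3 CPM and at 25.1, 17.9, 14.1 and 10.1 CPM (-0.28, SE 0.262, adjusted p = 0.446). For Fezf2 1 stroked sample lay among the controls and 3 below them, and for Cplx3 2 lay among or above them and 2 below. Bcl11b, by contrast, was at 131, 136, 136 and 130 CPM after stroke, inside the non-stroked range of 109 to 159 CPM, with a log2 fold change of 0.00 and a 95% interval of -0.50 to 0.50. Foxp2 was at 19.4, 13.6, 27.9 and 25.4 CPM (0.22, SE 0.255, adjusted p = 0.553).

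The spread among stroked WT samples followed the title prefix. In the 2 Imm2 samples Tbr1 averaged 153 CPM and in the 2 TF samples 79.8 CPM, and Rbfox3 averaged 402 and 240 CPM. Fezf2 was at 44.8 CPM in the Imm2 samples, close to the 47.5 CPM of controls, and at 19.3 CPM in the TF samples. Bcl11b did not split, at 134 and 133 CPM. Within Imm2, where controls exist, the log2 fold change of Tbr1 was -0.51 (adjusted p = 0.118), that of Nefh -0.43 (0.124), of Rorb -0.35 (0.384) and of Rbfox3 -0.29 (0.196), and no member was called. With the prefix as a covariate 1 member, Nefh, was called. Rorb also lost its call without stroked replicate 3 (adjusted p = 0.0755) or replicate 4 (0.0825), and without replicate 1 the count rose to 6 as Cux2 and Fezf2 passed. The shares of all genes called in these fits are not given here. No control sample is TF, so their distance from the controls and the prefix cannot be told apart. The TF samples of stroked WT also held more of the striatal list, 1192 and 1261 CPM against 447 and 741 CPM, and more of the choroid plexus list, 155 and 252 against 11.6 and 13.6 CPM. Leaving out all libraries above 100 CPM of the choroid plexus list removed exactly these TF samples and 2 controls, so that prefix, sample number and choroid plexus content changed together. In the 2 stroked and 2 control samples that were left no member was called, and the log2 fold changes were -0.33 for Rbfox3, -0.35 for Rorb, -0.58 for Tbr1 and -0.51 for Nefh. With the log2 sum of the striatal list as a covariate, a setting chosen after seeing the data, the 4 calls stood, at -0.60 for Rbfox3, -0.67 for Rorb, -0.86 for Tbr1 and -0.72 for Nefh, with adjusted p from 0.00631 for Nefh to 0.02855 for Rorb. All 4 stroked WT samples also held more of the microglia and macrophage list (7 genes, such as Aif1 and Cx3cr1), 356 to 448 CPM against 183 to 215 CPM in controls, and more of the fibroblast list (5 genes, such as Col1a1 and Dcn), 267 to 562 CPM against 81.2 to 91.9 CPM. Of an astrocyte list 5 of 6 genes, and of a T cell list (such as Cd3e and Cd4) 5 of 6 tested genes, also rose. Of an endothelial list 3 of 5 genes fell. The part of these lists in the fall was not tested.

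With delayed tacrolimus 7 of the 9 markers had their lowest group mean of the series, but the 2 untreated stroked WT samples with the same title prefix, TF, lay near these levels. Rbfox3 averaged 240 CPM in both, Nefh 44.6 CPM with delayed tacrolimus and 44.4 CPM in the untreated TF samples, Fezf2 18.1 and 19.3 CPM, and Tbr1 72.9 and 79.8 CPM. In WT-Tacr delayed mice 7 members fell and Foxp2 rose against non-stroked WT, which is 8 of 9 where 55.2% of all genes were called, 27.6% lower and 27.6% higher. Tbr1 was at 76.8, 98.0, 63.1, 65.8 and 60.9 CPM (log2 fold change -1.58, SE 0.222, adjusted p = 4.39e-06). Fezf2 was at 17.7, 27.0, 18.3, 14.2 and 13.2 CPM (-1.39, SE 0.277, adjusted p = 0.000207). Nefh was at 34.6 to 51.2 CPM (-1.17, SE 0.169, adjusted p = 5.92e-06). In none of these 3 genes did a treated sample reach a control. The values of 8 members did not overlap, as for 54.0% of all genes. Rorb (-1.12, SE 0.199), Rbfox3 (-1.04, SE 0.156) and Cux2 (-1.03, SE 0.216) fell to about the same degree as each other, at adjusted p of 6.09e-05, 9.84e-06 and 0.000331. Cplx3, at 13.6, 13.6, 8.52, 11.7 and 7.34 CPM, had the smallest fall (-0.90, SE 0.251, adjusted p = 0.00423). Foxp2 was at 32.9, 21.7, 24.6, 35.9 and 36.5 CPM against 14.0 to 21.4 CPM in controls (0.71, SE 0.245, adjusted p = 0.0168). It lost its call without control replicate 4 (adjusted p = 0.0636). It also lost the call with the striatal list as a covariate, a setting chosen after seeing the data. Bcl11b stayed level at 156, 95.3, 132, 157 and 132 CPM (0.01, SE 0.233, adjusted p = 0.966).

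All delayed samples are TF and all controls Imm2, so treatment, prefix and stroke cannot be told apart in this comparison. With the prefix as a covariate, which rests on the stroked WT and WT-Tacr acute samples, the 7 values stayed below 0 (-0.67 for Tbr1 to -0.17 for Cplx3) and no member was called. Delayed samples carried 604 to 849 CPM of the choroid plexus list in 4 of 5 libraries. Without the libraries above 100 CPM of it 1 delayed sample was left against 2 controls, and its log2 fold changes were -0.97 for Rbfox3, -1.04 for Nefh, -1.22 for Tbr1, -0.78 for Fezf2 and 0.055 for Foxp2. The lone sample is assumed to vary like the other groups in that fit, and that no member was called there says nothing about choroid plexus content. The microglia and macrophage list summed to 438 to 543 CPM and the fibroblast list to 336 to 1274 CPM in delayed samples, above every control. The striatal list (858 to 1899 against 342 to 657 CPM in controls) and the T cell list (17.6 to 33.0 against 4.37 to 10.6 CPM) were also higher. Of their genes, 8 of 10 and 6 of 6 tested were called higher. Of the astrocyte list 5 of 6 genes rose and 1 fell. The part of the microglia and macrophage, fibroblast, T cell and astrocyte lists in the result was not tested.

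With acute tacrolimus no member was called against non-stroked WT by edgeR or DESeq2, where 8.54% of all genes were called by edgeR. An unadjusted p below 0.05 held for 2 members, Rbfox3 and Nefh, and for 4701 of all 17031 genes tested. Tbr1 was at 221 CPM in the Imm2 sample and at 144 and 96.5 CPM in the TF samples (log2 fold change -0.50, SE 0.254, adjusted p = 0.197). Rbfox3 was at 494, 356 and 274 CPM in the same order (-0.39, SE 0.180, adjusted p = 0.156). Replicates 1 (Imm2) and 2 (TF) of this group are those whose file and title carry different numbers. The Imm2 replicate lay among the controls for both genes and the TF replicates below them. Nefh was at 87.3, 74.0 and 54.6 CPM (-0.48, SE 0.194, adjusted p = 0.109), and with Rorb it was 1 of 2 members without overlap, against 19.6% of all genes. Without replicate 1, Rbfox3, Fezf2, Tbr1 and Nefh passed, with log2 fold changes of -0.66, -0.998, -0.88 and -0.67. The share of all genes called without that sample is not given here, and the 8.54% belongs to the fit with all samples. With the title prefix as a covariate no member was called, and the log2 fold changes of Rbfox3 (0.043), Cux2 (0.31), Rorb (0.072), Fezf2 (0.17) and Tbr1 (0.042) were above 0.

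Set against untreated stroked WT mice, acute tacrolimus gave no call of a member by edgeR or DESeq2, and 0% of all genes were called by edgeR. No member had an unadjusted p below 0.05, against 2168 of 17031 genes tested. Of the members, 8 had a positive sign, with a median log2 difference of 0.28. Delayed tacrolimus likewise gave no call by edgeR and 0% among all genes, although DESeq2 called 1 member. An unadjusted p below 0.05 held for 7 members and for 3455 of all 17031 genes tested. The median difference was -0.43, and all 9 members overlapped between the groups (4.23% of all genes did not). Within the TF samples the difference was 0.0060 for Rbfox3, 0.010 for Nefh and 0.013 for Rorb, the other members lay between -0.13 for Cplx3 and 0.19 for Foxp2, and none was called (adjusted p = 0.9998 for each). Over both prefixes, without stroked WT replicate 4, the count was 3, and the share of all genes called there is not given here. Between both tacrolimus schedules 7 members were lower after delayed treatment, with 20.3% of all genes called and 9.96% lower, and 5 members did not overlap (17.8% of all genes). The differences ran from -0.64 for Rbfox3 to -1.08 for Tbr1, with adjusted p from 0.0102 to 0.0385, and Bcl11b and Foxp2 did not pass. Other cell type lists moved with it. Of the microglia and macrophage list 6 of 7 genes rose (438 to 543 CPM summed, 231 to 412 CPM in acute samples), of the fibroblast list 4 of 5 (336 to 1274 against 82.5 to 356 CPM) and of the choroid plexus list 2 of 6 (11.4 to 849 against 3.87 to 17.9 CPM). In the 1 delayed sample below 100 CPM of the choroid plexus list, against the 3 acute samples, the differences were -0.54 for Rbfox3, -0.64 for Tbr1 and -0.48 for Nefh, with no call in a fit that has 1 sample on that side. The part of the other 2 lists was not tested. The comparison rested on few samples. Fezf2 lost its call without delayed replicate 1, 3, 4 or 5, at adjusted p from 0.0562 to 0.0981. Without acute replicate 1 or replicate 2 no member was called, within the TF samples none was (Tbr1 -0.69, adjusted p = 0.159), and a fit of these groups alone gave none (adjusted p from 0.0741 to 0.101).

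Among immunodeficient mice no member passed after stroke in the edgeR fit of all 8 groups. In Rag2-/- mice edgeR called 0 of 9 where 8.23% of all genes were called, and DESeq2 called Rorb. An unadjusted p below 0.05 held for 2 members and for 3691 of all 17031 genes tested. Rorb was at 68.8, 73.3 and 63.0 CPM without and at 32.6, 42.4 and 52.2 CPM with stroke (log2 fold change -0.69, SE 0.242, adjusted p = 0.0806). Rbfox3 was at 447, 492.8 and 538 against 333, 382 and 348 CPM (-0.47, SE 0.191, adjusted p = 0.137). For both, and for Tbr1 and Nefh, every stroked sample was below every control, as it was apart in either direction for 35.7% of all genes. A fit of only the Rag2-/- groups called these 4 genes, at adjusted p from 0.00978 to 0.0312, and the fit with the prefix as a covariate called Rbfox3 and Rorb. The share of all genes called in these fits is not given here, and the 8.23% belongs to the fit of all groups. Fezf2 was at 42.7, 53.7 and 52.7 CPM after stroke, not below its controls of 39.9, 48.3 and 49.6 CPM (0.11, SE 0.332, adjusted p = 0.8995). Cux2 spread from 61.2 to 156 CPM, with the low value in replicate 1, whose choroid plexus list summed to 1577 CPM against 7.75 and 10.7 CPM in the others.

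In NSG mice 0 of 9 were called by edgeR or DESeq2, where 21.9% of all genes were called by edgeR. No member had an unadjusted p below 0.05, against 6116 of 17031 genes tested. Tbr1 was at 144, 105 and 135 CPM after stroke and at 179, 213, 122 and 201 CPM without (log2 fold change -0.48, SE 0.254, adjusted p = 0.175). Rbfox3 was at 340, 322 and 384 against 401, 457, 366 and 505 CPM (-0.31, SE 0.180, adjusted p = 0.218). Stroked and non-stroked values overlapped for all 9 members, where 25.0% of all genes did not overlap. Nefh had the opposite sign to WT mice, at 156, 105 and 112 CPM after stroke and 121, 109, 80.8 and 118 CPM without (0.21, SE 0.191, adjusted p = 0.443). With the prefix as a covariate Rbfox3 and Tbr1 passed, at adjusted p of 0.0413 and 0.0474. The share of all genes called in that fit is not given here.

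By edgeR, tests of the difference in response called no member. Stroked WT holds 2 TF samples while all other samples of these tests are Imm2. For Rag2-/- against WT mice, with 0% of all genes called, the median difference was 0.16. No member had an unadjusted p below 0.05, against 713 of 17031 genes tested. Within the Imm2 samples, a setting chosen after seeing the data, the differences ran from -0.33 for Rorb to 0.27 for Foxp2. For NSG against WT mice, with 0.0294% called, Nefh had a difference of 0.97 (SE 0.261, 95% interval 0.43 to 1.51, edgeR adjusted p = 0.137), and DESeq2 called it (adjusted p = 0.0452). Fezf2 followed at 0.92 (SE 0.423, adjusted p = 0.369). Within the Imm2 samples Nefh was at 0.63 (adjusted p = 0.606) and Fezf2 at 0.43 (adjusted p = 0.891). The intervals of the other 7 members included 0.

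**Figure D2:**
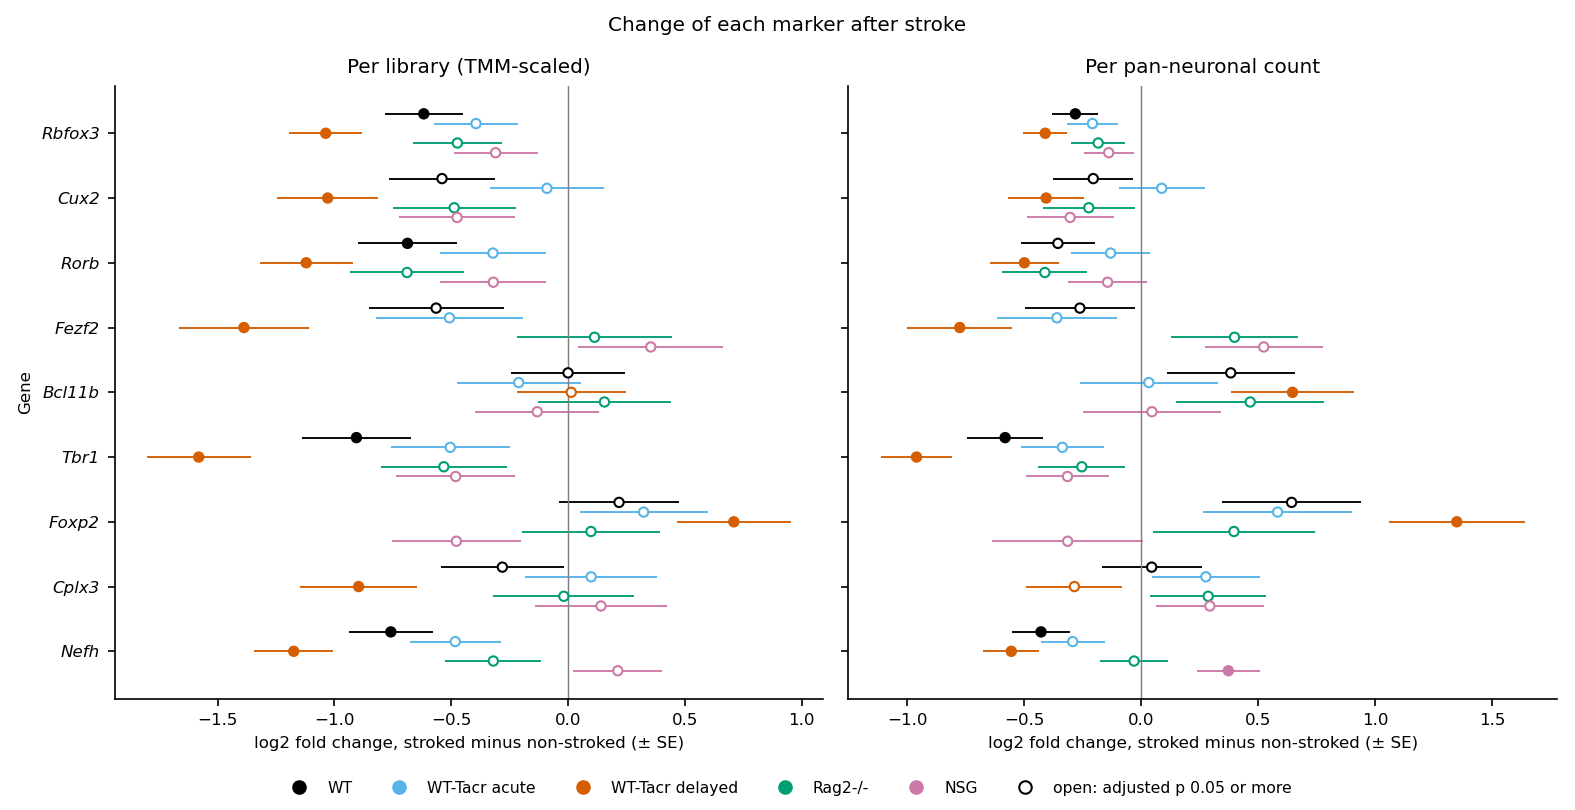
Log2 fold change after stroke (x axis, stroked minus non-stroked of the same strain, bars are the SE) of each marker (y axis) in 5 comparisons (colours), scaled to library size (left) or to the summed pan-neuronal counts (right); filled points have an adjusted p below 0.05. On the left the delayed points lie farthest to the left for 7 genes, down to -1.58 for Tbr1, while Bcl11b is at 0.01 and Foxp2 at 0.71.

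To ask whether the markers changed beyond neurons as a whole, counts were scaled to the sum of the 16 pan-neuronal genes in place of the library. That sum was 17308 to 18759 CPM in non-stroked WT, 11996 to 16251 CPM in stroked WT and 10699 to 12411 CPM in WT-Tacr delayed mice, and 9 and 14 of its 16 genes fell in these comparisons. A pan-neuronal list does not tell cortical from striatal neurons. The striatal list summed to 342 to 657, 447 to 1261 and 858 to 1899 CPM in these groups, in that order. It was not a covariate on the pan-neuronal scale, so its part in the values below was not tested. On this scale 3 members were lower after stroke in WT mice, where 50.1% of all genes were called and 1.3% were called lower. They were Tbr1 (-0.58, SE 0.162, adjusted p = 0.00555), Nefh (-0.43, SE 0.126, 0.00759) and Rbfox3 (-0.28, SE 0.0990, 0.0213). Rorb, at -0.36, no longer passed (adjusted p = 0.0604). Rbfox3 also lost its call without non-stroked replicate 1 or stroked replicate 3 or 4, at adjusted p from 0.0839 to 0.0971. The pan-neuronal sum of stroked WT was 16251 and 15598 CPM in the Imm2 samples and 11996 and 12413 CPM in the TF samples. On this scale the prefix was neither a covariate nor a subset, so its part in these calls was not tested.

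In WT-Tacr delayed mice, dividing by the lower pan-neuronal sum raised the value of every member. On the library scale 7 members were already lower, Foxp2 was higher and Bcl11b was level at 0.01. Tbr1 (-0.96, SE 0.153), Fezf2 (-0.78, SE 0.225), Nefh (-0.56, SE 0.119), Rorb (-0.50, SE 0.149), Rbfox3 (-0.41, SE 0.0936) and Cux2 (-0.41, SE 0.162) were lower per neuronal transcript, with adjusted p from 7.94e-06 to 0.0259. Foxp2 (1.35, SE 0.291, adjusted p = 0.000223) and Bcl11b (0.65, SE 0.263, 0.0286) were higher. Cplx3 did not pass (-0.29, adjusted p = 0.204), and 76.4% of all genes were called, 3.86% lower and 72.5% higher. Cux2 lost its call without delayed replicate 5 (adjusted p = 0.0564), and Bcl11b without control replicate 3 or 4 or delayed replicate 4 (0.0824, 0.0707 and 0.0607). On this scale too, all delayed samples are TF and all controls Imm2, so treatment, prefix and stroke cannot be told apart. With the excitatory cortical list as the reference the count was 4, 2 lower and 2 higher. The share of all genes called under that reference is not given here. Scaled to the library, all 7 genes of that list fell in this comparison, with a median log2 fold change of -1.26, against -1.04 for the members. No member was called in WT-Tacr acute (18.3% of all genes, smallest adjusted p of a member 0.124) or Rag2-/- mice (16.4%, smallest 0.109). In NSG mice Nefh was higher (0.37, SE 0.134, adjusted p = 0.0498), where 20.6% of all genes were called and 19.2% higher, a call that was lost under the excitatory reference and without stroked replicate 1 (adjusted p = 0.329) or non-stroked replicate 2, 3 or 4 (0.0905, 0.161 and 0.0674).

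Bcl11b and Foxp2 are also transcription factors of striatal medium spiny neurons, which lie beneath the cortex. Over the 29 samples Foxp2 went with the striatal list (Pearson r = 0.88 of log2 CPM), while Rbfox3, Tbr1, Rorb and Cux2 went with the pan-neuronal list (r = 0.97, 0.96, 0.94 and 0.92). These points share groups, title prefix and depth, so r is a description. Bcl11b had r = 0.47 with the striatal list and 0.06 with the pan-neuronal list. With the T cell list (7 genes, such as Cd3e and Cd4) r was as high, 0.88 for Foxp2 and 0.46 for Bcl11b, and after centring on group means it was 0.86 and 0.72, against 0.85 and 0.61 with the striatal list. In non-stroked WT mice 4 of the 7 T cell genes were below 0.1 CPM in all samples, and Cd4 made up 7.18 of the mean sum of 8.33 CPM. The sum was higher still in some samples of mice that lack mature T cells. Without stroke it ran from 4.94 to 37.2 CPM in NSG mice, where 5 of the 7 genes were below 0.1 CPM in all samples. In Rag2-/- mice it ran from 4.98 to 19.3 CPM. NSG replicate 4 and Rag2-/- replicate 1 were highest for this list and for the striatal list (2464 and 1005 CPM) in their groups. The sum is thus no measure of T cells alone. Of the 6 T cell genes tested, 6 rose in WT-Tacr delayed mice (17.6 to 33.0 CPM summed, 4.37 to 10.6 CPM in non-stroked WT) and 5 in stroked WT mice. None passed in the other stroke comparisons, and the part of this list was not tested. Of the 10 striatal genes, 8 rose in WT-Tacr delayed mice (858 to 1899 CPM summed, 342 to 657 CPM in non-stroked WT) and none passed in the other stroke comparisons. With the log2 sum of that list as a covariate, a setting chosen after seeing the data, Foxp2 in WT-Tacr delayed mice had a log2 fold change of 0.20 (adjusted p = 0.291), and in non-stroked NSG against WT mice 0.14 (adjusted p = 0.714). Bcl11b in these comparisons had -0.32 (adjusted p = 0.230) and 0.33 (adjusted p = 0.467). Among stroked NSG samples replicate 2, with 133 CPM, was lowest for the striatal list and for Foxp2 (13.2 CPM) but held 199 CPM of Bcl11b. How much of either gene came from striatal tissue in a sample was not measured.

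**Figure D3:**
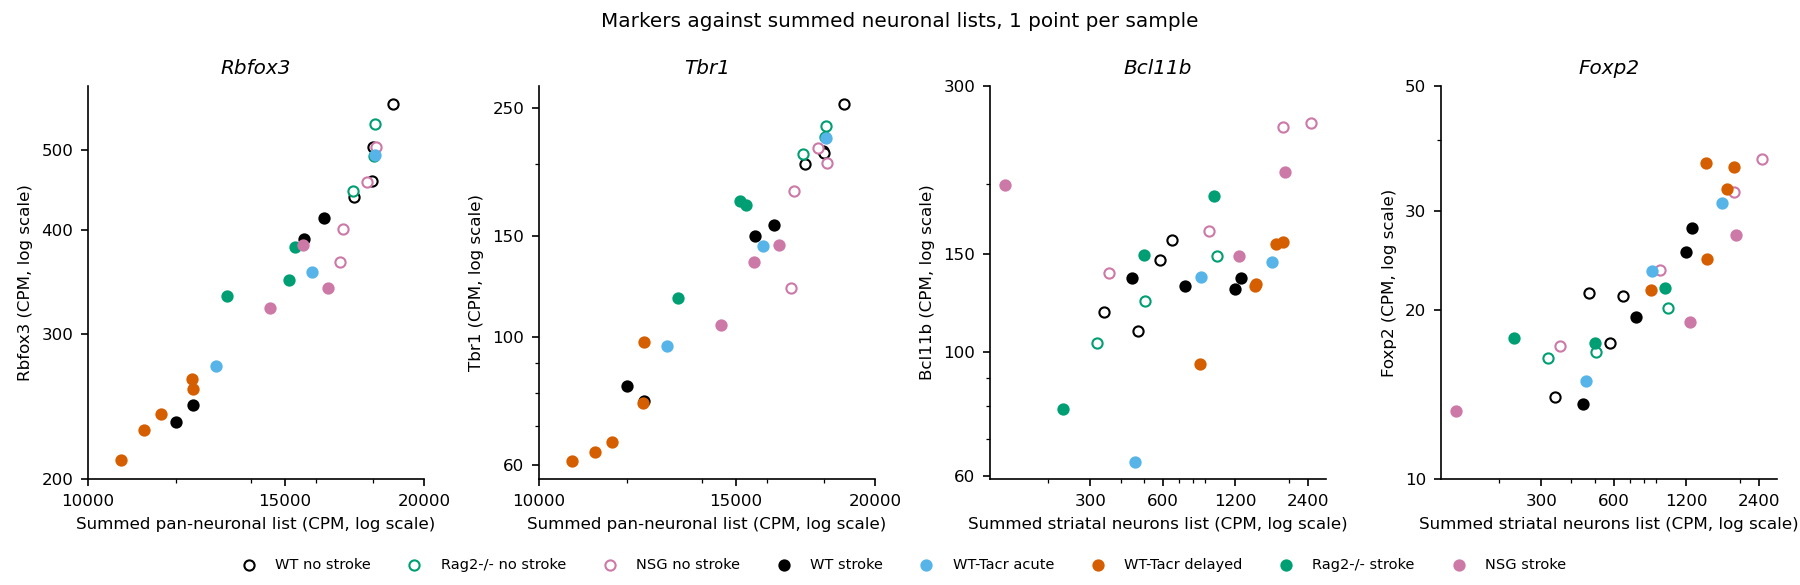
Level of 4 markers (y axis, CPM on a log scale) against the summed level of a neuronal gene list in the same sample (x axis, CPM on a log scale), 1 point per sample, open without stroke and filled with stroke, coloured by strain and treatment. Rbfox3 and Tbr1 line up with the pan-neuronal sum (r = 0.97 and 0.96), Foxp2 with the striatal sum (r = 0.88) and Bcl11b less so (r = 0.47).

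Other layer markers were read from a list of 35 genes, all of which were tested. After stroke in WT mice 11 fell and 1 rose, in WT-Tacr acute 3 fell, in WT-Tacr delayed 20 fell and 2 rose, in Rag2-/- mice 1 fell, and in NSG mice 9 fell and 2 rose. Of all genes 26.9%, 8.54%, 55.2%, 8.23% and 21.9% were called in these comparisons, in that order. Of the microglia and macrophage list and the fibroblast list 6 of 7 and 4 of 5 genes also rose in NSG mice (362 to 499 against 239.7 to 277 CPM and 193 to 1024 against 100.5 to 177 CPM summed), and 4 of 7 and 4 of 5 genes in Rag2-/- mice. The part of these lists was not tested. The medians were -0.29, -0.18, -0.52, -0.14 and -0.15, where the median of all genes lay between -0.00 and 0.03. By layer, 2 of 3 layer 4 genes fell in WT mice, Rspo1 (-1.001, adjusted p = 0.0261) and the potassium channel gene Kcnh5 (-1.03, adjusted p = 0.00663), and all 3 fell in WT-Tacr delayed mice. Of 10 genes of layers 2 and 3, 2 fell in WT mice and 6 in WT-Tacr delayed mice. Pou3f2, a POU factor of the upper layers, fell in both (-0.79, adjusted p = 0.00292, and -1.37, adjusted p = 1.58e-06). Of 12 genes of layer 5, 5 fell in WT mice, among them Chrna6 (-1.98, adjusted p = 0.0120) and Ldb2 (-0.71, adjusted p = 0.0101). Crym, a thyroid hormone binding protein of layer 5 neurons that striatal neurons also express, rose in WT (0.72, adjusted p = 0.0428) and in WT-Tacr delayed mice (1.26, adjusted p = 0.000240). In WT-Tacr delayed mice 6 genes of layer 5 fell and Crym was the 1 that rose. Of 6 genes of layer 6, 2 fell in WT mice, and 4 fell and 1 rose in WT-Tacr delayed mice. None of the 4 layer 6b genes fell in WT mice, and 1 did in WT-Tacr delayed mice.

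Of the genes that passed in NSG mice, the 6 with the largest change all fell. They were Kcnh5 (-1.03, adjusted p = 0.0148), Otof (-0.92, adjusted p = 0.0276), Unc5d (-0.88, adjusted p = 0.00631), Sox5 (-0.70, adjusted p = 0.000821), Rasgrf2 (-0.69, adjusted p = 0.0197) and Ntsr1 (-0.62, adjusted p = 0.0230). Sox5 and Ntsr1 belong to the layer 6 list and Unc5d, Otof and Rasgrf2 to that of layers 2 and 3. In Rag2-/- mice Cux1, the homologue of Cux2, fell (-0.49, adjusted p = 0.0378). Without stroke, Crym was far lower in NSG than in WT mice (-3.27, SE 0.302, adjusted p = 1.52e-08), Ldb2 was lower (-0.67, adjusted p = 0.0267) and Wfs1 was higher (1.04, adjusted p = 3.86e-05).

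**Figure D4:**
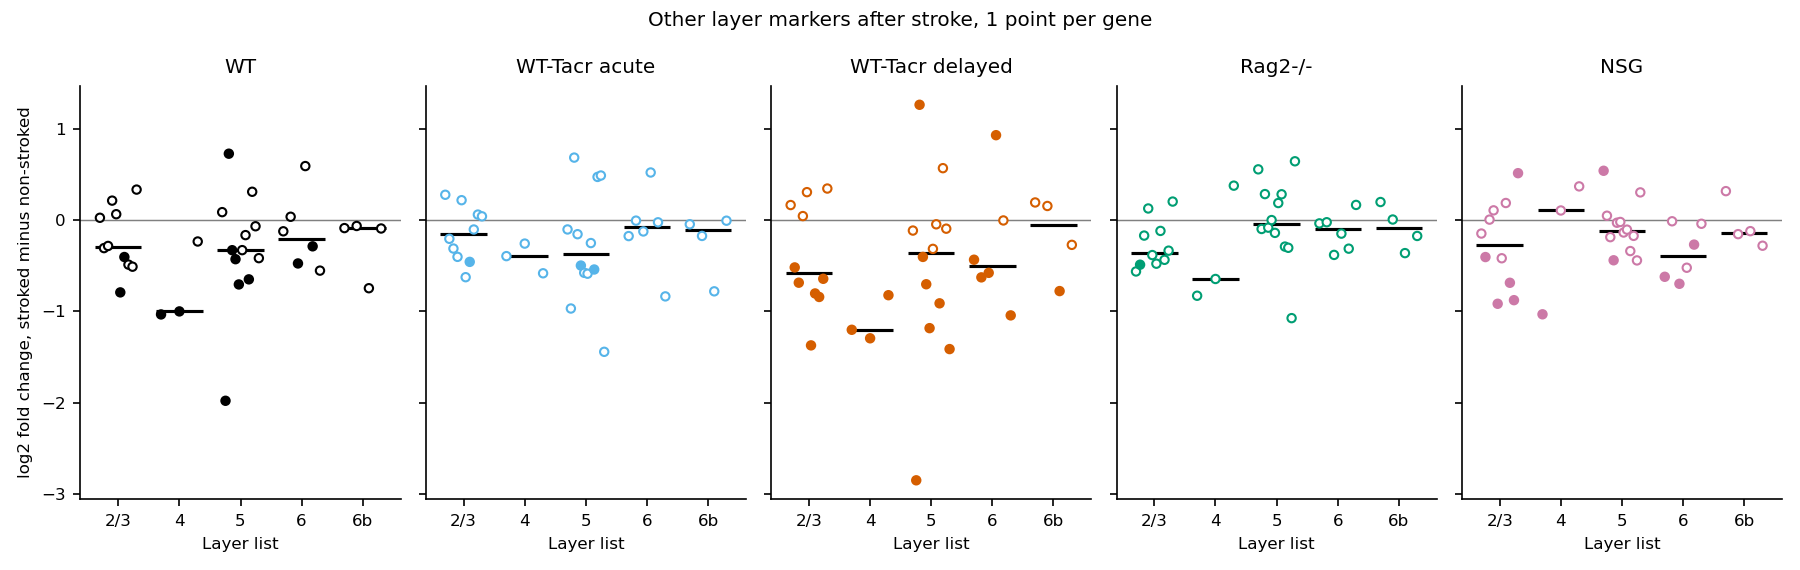
Log2 fold change after stroke (y axis, stroked minus non-stroked) of 35 other layer markers, 1 point per gene, by layer list (x axis) in 5 comparisons (panels); filled points have an adjusted p below 0.05 and black bars are list medians. The layer 4 median is -1.001 in WT and -1.20 in WT-Tacr delayed mice and 0.10 in NSG mice.

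The paralogs of the members followed in part, with 15 of 17 tested. In WT mice 9 fell and 3 rose. The neurofilament genes Nefm (-0.81, adjusted p = 0.000597) and Ina (-0.48, adjusted p = 0.00993) fell with Nefh, and Rbfox1 (-0.66, adjusted p = 0.00516) with Rbfox3. Among those that rose were Tbx21 (from a mean of 0.0735 to 2.39 CPM, adjusted p = 0.00253) and Eomes (from 0.443 to 5.96 CPM, adjusted p = 0.0173), which are also transcription factors of lymphocytes. In WT-Tacr delayed mice 10 fell and 3 rose, in WT-Tacr acute none passed, in Rag2-/- mice 1 fell, Cux1, and 1 rose, and in NSG mice 4 fell, led by Rora (-0.70, adjusted p = 0.0116). Of all genes 26.9% were called in WT, 55.2% in WT-Tacr delayed, 8.54% in WT-Tacr acute, 8.23% in Rag2-/- and 21.9% in NSG mice.

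The genes whose log2 CPM ran most closely with each member over the 29 samples were neuronal in part. For Rbfox3 they included Gnaz and Ubqln4, and they were for Tbr1 Rph3a, Ubqln4 and Lrrc4, for Cux2 Lingo1, Ttc7b and Rorb, and for Rorb Lingo1, Osbp2 and Sgtb. Fezf2 ran with Nfix, Sept3 and Zfpm1, Cplx3 with Myh3, Nudt3 and Pvalb, and Nefh with Ckmt1, Tubg1 and Myh7b. Foxp2 was closest to Gpr149, Adcy5 and Pde10a, and Bcl11b to Myo5b, Cpne2 and Rerg. These r ran from 0.85 (Bcl11b with Rerg) to 0.98 (Rbfox3 with Gnaz), over samples that share groups, title prefix and depth.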

How the data were processed

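RNA was sequenced from brain tissue of 29 mouse samples in 8 groups, and the authors deposited raw counts per gene for each sample. The aligner, counter, genome build and strand setting are not given in the sources used here. Ensembl identifiers were named with GENCODE M21 (GRCm38), in which 25712 of 25746 were found and 34 were not. Total counts were 17789044 to 43403413 per sample. Groups were taken from the genotype and treatment labels and the titles. For 2 of the 3 WT-Tacr acute samples the number in the title differs from that in the name of the deposited file, and the link recorded between sample and file was used; prefix and treatment are the same in both names where given. The 9 members and all gene lists were chosen with earlier results of these data known.

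Counts were analysed with edgeR 4.0.16 in R 4.3.3. Genes were kept by filterByExpr (17031 of 25746), scaled by TMM, and fitted in 1 quasi-likelihood model of 8 groups, with Benjamini-Hochberg adjustment over all genes tested and a call at an adjusted p below 0.05. CPM are TMM-scaled, and correlations were taken on log2 CPM (prior count 2). In a further fit the library size was replaced by the summed counts of 16 pan-neuronal genes. The scripts were tested on simulated data. Named were the 9 members, up to 6 called genes of the layer and paralog lists per comparison by size of change, up to 3 genes of each cell type list in list order, and the 3 genes closest to each member by Pearson r. Some genes that this rule names are not reported here. Ina falls outside this rule and was chosen after its values were seen. Cd4, the last gene of the T cell list, also falls outside this rule. Alternatives were DESeq2 1.42.0, other scaling, no filter, a fold minimum, the title prefix as a covariate or as a subset, the compared groups alone, and each sample left out. The striatal covariate and the omission of libraries rich in choroid plexus genes, and the test of strain differences in Imm2 samples alone, were added after seeing the data. Same-numbered non-stroked samples shared no deviation (r from -0.26 to 0.11). RefSeq promoters are from GRCm38.p6.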

Additional observations from a re-analysis of the deposited data

Results flagged for a closer look

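Nefh in non-stroked WT replicate 3, at 121 CPM, stood apart from the other non-stroked WT samples at 94.0, 91.4 and 95.7 CPM by Dixon's ratio (0.856). This library, a control in every WT comparison with non-stroked tissue, also differed in tissue content. A midbrain and monoamine neuron list summed to 53.3 CPM, against 8.26, 7.45 and 8.19 CPM in the others. An oligodendrocyte list summed to 4084 CPM, against 5705, 5305 and 5609 CPM. The part of this in the Nefh value was not tested. Among 36 groups of values tested, chance alone marks about 1 in 20.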

How the results depend on the processing

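Counts of called members changed as follows. In WT mice 4 became 0 with a log2 fold change above 1 required, 1 with the title prefix as a covariate, 0 in Imm2 samples alone and 0 without libraries over 100 CPM of the choroid plexus list. In WT-Tacr delayed mice 8 became 0 with the prefix as a covariate, and Cplx3 (-0.90) and Foxp2 (0.71) did not reach the fold minimum. Without the choroid plexus libraries 1 delayed sample was left, and Rbfox3 was at -0.97 and Nefh at -1.04. In Rag2-/- mice 0 became 2 with the prefix, 1 by DESeq2 and 4 with only the groups compared, and in NSG mice 0 became 2 with the prefix. Delayed against untreated became 1 by DESeq2. Delayed against acute, 7, became 1 with the fold minimum, 3 with the prefix, and 0 with only the groups compared, without the choroid plexus libraries or in TF samples alone. The NSG minus WT response became 1 by DESeq2. Relative to the excitatory list the delayed count was 4 and the NSG count 0. The causes were not tested. The shares of all genes called under these settings, or with samples left out, are not given here. With samples left out singly, the counts ran from 0 to 4 in WT-Tacr acute, 0 to 3 for delayed against untreated, 0 to 7 for delayed against acute, and relative to pan-neuronal transcripts 2 to 5 in WT, 0 to 2 in WT-Tacr acute and 0 to 1 in NSG mice.

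The replicate block was fitted on non-stroked samples that share a number. It gave 1 member for NSG against Rag2-/-, as did those samples without a block, and same-numbered samples did not deviate together.

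Values that changed sign were called neither in the fit as reported nor under the setting that changed the sign. In WT mice Bcl11b was 0.083 with the prefix, 0.020 without choroid plexus libraries and 0.0098 in Imm2 samples, Foxp2 was -0.0096, -0.34 and -0.16 in that order and -0.057 with the striatal covariate, and Cplx3 was 0.021, 0.096 and 0.077. With the prefix, WT-Tacr acute gave 0.043 for Rbfox3, 0.31 for Cux2, 0.072 for Rorb, 0.17 for Fezf2 and 0.042 for Tbr1. Bcl11b was -0.32 with the striatal covariate and -0.46 without choroid plexus libraries in WT-Tacr delayed, -0.12 without those libraries in Rag2-/- and 0.12 with the covariate in NSG mice. Without those libraries, delayed against acute gave -0.26 for Bcl11b and -0.088 for Foxp2. With samples left out singly, Bcl11b ran from -0.085 to 0.096 in WT, -0.42 to 0.059 in WT-Tacr acute, -0.071 to 0.12 in WT-Tacr delayed, -0.13 to 0.43 in Rag2-/-, -0.28 to 0.0011 in NSG mice and -0.076 to 0.40 for delayed against acute. Cux2 ran from -0.29 to 0.14 in WT-Tacr acute. Cplx3 ran from -0.14 to 0.31 in WT-Tacr acute, -0.13 to 0.097 in Rag2-/- and -0.27 to 0.36 in NSG mice, and Foxp2 from -0.014 to 0.19 in Rag2-/- mice. Per kilobase of the longest transcript the levels were 156.5 CPM for Rbfox3, 54.9 for Tbr1, 19.6 for Fezf2, 16.6 for Cux2, 7.03 for Rorb and 2.74 for Foxp2. Depth limits Cplx3 most, at 148 counts in its lowest sample.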
